A study of Homo sapiens with 22 samples.

Results

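The genes described here encode 9 enzymes that make serine and pass its carbon into the folate cycle: PHGDH, PSAT1, PSPH, SHMT1, SHMT2, MTHFD1, MTHFD2, MTHFD1L and ALDH1L2. They were chosen by name, with the BI8622 responses of MTHFD2 and SHMT2 in these data already known, and all 9 were found by symbol among 25244 genes of the HUWE1 and 25791 genes of the MIZ1 experiment. PHGDH, PSAT1 and PSPH act in the cytosol and turn a glycolytic intermediate into serine. SHMT1 and MTHFD1 are the cytosolic folate enzymes, and SHMT2, MTHFD2, MTHFD1L and ALDH1L2 the mitochondrial ones, which gives 5 cytosolic and 4 mitochondrial members.

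The cells were Ls174T, a line from a human colon carcinoma, and their RNA was sequenced in 8 groups with 2 libraries each. In the HUWE1 experiment, cells carrying the empty pLKO vector (control vector, or control cells) or that vector with an shRNA against the ubiquitin ligase HUWE1 (shHUWE1, delivered by lentivirus and selected with puromycin) received DMSO or 20 µM of the HUWE1 inhibitor BI8622 for 16 h. In the MIZ1 experiment, cells carrying a pIND vector with a doxycycline-inducible shRNA against MIZ1, a zinc finger protein encoded by ZBTB17, were kept without doxycycline (-Dox) or with 1 µg/ml for 4 days (+Dox), and received DMSO or BI8622. All MIZ1 groups carry the inducible vector, and no group received doxycycline without the shRNA, so the 2 cannot be told apart. The values used are the authors' mean log2 CPM (a gene's reads scaled to library size) over both groups of a compared pair. A level for each group was solved from these means, so no value per library, no spread between libraries and no test can be given, and the depth of the libraries is unknown. A difference counts here as past 1.5-fold, 0.58 on the log2 scale, in genes of at least 5 CPM on average. It is a size and not a significance.

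The groups followed their labels at the targeted genes, and the cells expressed colon markers. HUWE1 stood at 420 CPM in control cells and 216 CPM in shHUWE1 cells in DMSO, and at 462 and 180 CPM in BI8622. ZBTB17 stood at 15.7 CPM without and 11.0 CPM with doxycycline in DMSO, and at 22.3 and 11.3 CPM in BI8622. The 11 colon epithelium markers summed to between 1770 and 3166 CPM in the 8 groups. They were unequal: in control cells in DMSO, KRT8 at 626, EPCAM at 437 and KRT18 at 352 CPM were highest. KRT20 at 3.36 and CEACAM5 at 7.34 CPM were lowest there. Of 8 markers of fibroblasts, leukocytes and endothelial cells, 5 were listed, summing to between 14.2 and 17.0 CPM, and COL3A1, CD3E and PECAM1 were not.

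Serine gives a carbon unit to tetrahydrofolate when it is turned into glycine. In the mitochondria SHMT2 makes this transfer, MTHFD2 oxidises the folate-bound unit and MTHFD1L releases it as formate, while ALDH1L2 can burn it to carbon dioxide. In the cytosol MTHFD1 takes formate up again for the synthesis of purines and thymidylate, and SHMT1 can run between serine and glycine in either direction. Known targets of the amino acid stress factor ATF4 include MTHFD2, SHMT2, PHGDH and PSAT1, which is not a full list of such members. These genes are often raised in tumours and in proliferating cells. The targets named here are also the only members past 1.5-fold higher with BI8622 in any background. Members not named may be targets too, and PSPH, SHMT1 and MTHFD1 among them had lower levels with BI8622 in all 4 backgrounds.

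Promoters are shown for MTHFD2, MTHFD1 and MTHFD1L, since MTHFD2 to MTHFD1 was the pair with the largest change in its ratio with BI8622, and MTHFD1L is the other mitochondrial MTHFD gene among the members. Each line holds the 250 bases before the transcription start, taken from RefSeq for build GRCh38.p14 on the plus strand, at chr2:74198365-74198614, chr14:64388103-64388352 and chr6:150866236-150866485. Capitals mark matches to CACGTG, the E-box bound by MYC and related factors, or to TGATGNAA, the core of the site bound by ATF4 with C/EBP proteins.
MTHFD2: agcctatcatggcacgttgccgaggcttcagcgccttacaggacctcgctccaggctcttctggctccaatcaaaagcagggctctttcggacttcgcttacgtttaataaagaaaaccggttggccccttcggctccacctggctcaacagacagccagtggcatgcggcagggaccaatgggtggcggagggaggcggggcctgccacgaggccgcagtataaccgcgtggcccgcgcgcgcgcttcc
MTHFD1: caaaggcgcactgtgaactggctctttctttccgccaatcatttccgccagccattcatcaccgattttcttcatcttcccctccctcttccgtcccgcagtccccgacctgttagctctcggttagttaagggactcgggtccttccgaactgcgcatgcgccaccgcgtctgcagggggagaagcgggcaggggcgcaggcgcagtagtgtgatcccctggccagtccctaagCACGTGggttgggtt
MTHFD1L: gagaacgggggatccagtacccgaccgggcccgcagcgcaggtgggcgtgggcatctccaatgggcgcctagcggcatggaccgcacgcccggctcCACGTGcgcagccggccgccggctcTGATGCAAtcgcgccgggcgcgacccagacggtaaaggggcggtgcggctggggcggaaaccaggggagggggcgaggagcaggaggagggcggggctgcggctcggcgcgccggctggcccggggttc
MTHFD1 holds CACGTG 15 bases before its start. MTHFD1L holds CACGTG 154 and TGATGCAA 129 bases before its start, in window 1 of the 4 listed for it. Window 3 overlaps it and holds both matches, 115 and 90 bases before its start, while windows 2 and 4 hold neither. Searched on both strands, the E-box occurs in 6.34% and TGATGNAA in 3.14% of 35116 windows of this length. The windows of MTHFD2, PHGDH, PSAT1 and SHMT1 hold neither run of letters, and 6 of the 9 members have a listed window, PSPH, SHMT2 and ALDH1L2 being the others. A match is a description of the letters and not a bound site.

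The first question was how the members stood before any treatment. In DMSO-treated control cells, levels per kb of the main transcript were highest for PSAT1 at 83.2 CPM per kb, SHMT2 at 81.8 and PHGDH at 77.1. MTHFD1 followed at 50.5 CPM per kb, MTHFD1L at 44.8, SHMT1 at 36.3, MTHFD2 at 36.0 and PSPH at 27.4. ALDH1L2 stood far below the rest at 0.258 CPM per kb. The order depends on the length used, since counted exons may include rarer transcripts. Per kb of all annotated exons PSAT1 kept 83.2 CPM per kb, PHGDH came to 15.7, MTHFD1 to 9.18 and MTHFD2 to 13.8.

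**Figure D1:**
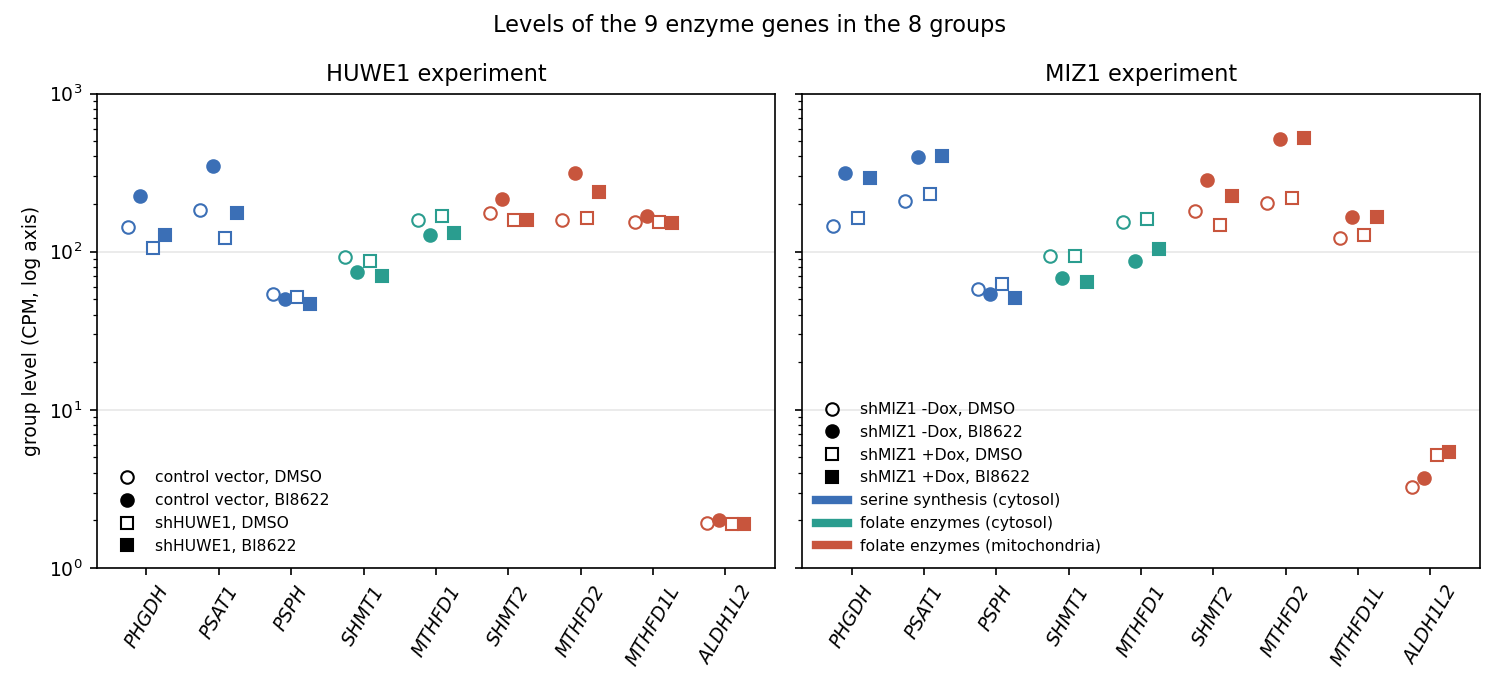
Level of each of the 9 genes in the 8 groups, in CPM on a log axis, solved from the authors' mean levels of pairs of groups. Open symbols are DMSO and filled symbols BI8622, circles are control vector or -Dox and squares shHUWE1 or +Dox, and no error can be given. MTHFD2, PSAT1 and PHGDH are higher with BI8622 in all 4 pairs, SHMT1 and MTHFD1 lower, and ALDH1L2 lies under 6 CPM.

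With BI8622 the mitochondrial enzyme MTHFD2 and the cytosolic serine synthesis enzymes PHGDH and PSAT1 had higher levels in all 4 backgrounds, while the cytosolic folate enzymes SHMT1 and MTHFD1 and the last serine synthesis enzyme PSPH had lower levels in all 4. The 4 comparisons of BI8622 with DMSO set different groups against each other. The levels within an experiment were solved jointly, so its comparisons rest on shared pair means and are not independent. In control cells 3 members were past 1.5-fold higher and 0 lower, where 7.38% of 16997 genes were past it higher and 4.72% lower. In shHUWE1 cells 0 members were past 1.5-fold, where 5.13% of genes were higher and 4.51% lower. In -Dox cells 4 members were past it higher and 1 lower, beside 12.2% and 12.0% of 17219 genes. In +Dox cells the counts were again 4 and 1, beside 10.7% and 10.9% of genes. Since BI8622 responses chose the genes, these counts are a description. The 11 colon markers moved with BI8622 too, with median log2 ratios of 0.59 in control cells, 0.25 in shHUWE1 cells, 0.58 in -Dox cells and 0.61 in +Dox cells. Of them 6, 2, 5 and 5 were past 1.5-fold higher and 0, 0, 1 and 1 lower, and their part in the members' values was not tested. Fewer cells with a transcript and less RNA per cell cannot be told apart in these bulk samples.

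PHGDH (ENSG00000092621, chromosome 1 of GRCh37, 120191034 to 120286841), which oxidises 3-phosphoglycerate in the committed step of serine synthesis, stood at 144 CPM in DMSO and 225 CPM in BI8622 in control cells, and at 106 and 128 CPM in shHUWE1 cells. In the MIZ1 experiment it stood at 145 and 315 CPM in -Dox cells and at 163 and 293 CPM in +Dox cells. Each BI8622 group was above its DMSO group, and the log2 ratios were 0.65, 0.27, 1.11 and 0.84. The shHUWE1 cells in BI8622 were below the control cells in DMSO.

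PSAT1 (ENSG00000135069, chromosome 9, 80912041 to 80945009), the aminotransferase of the next step, stood at 184 CPM in DMSO and 346 CPM in BI8622 in control cells, and at 123 and 175 CPM in shHUWE1 cells. In -Dox cells the levels were 208 and 396 CPM, and in +Dox cells 233 and 401 CPM. PSAT1 therefore had log2 ratios of 0.91, 0.51, 0.93 and 0.78 in the same order. PSPH (ENSG00000146733, chromosome 7, 56078744 to 56119297), the phosphatase that releases serine, did not share this pattern. Its levels were 54.1 and 49.9 CPM in control cells, 51.6 and 46.7 CPM in shHUWE1 cells, 58.5 and 54.1 CPM in -Dox cells and 62.1 and 51.1 CPM in +Dox cells. All 4 log2 ratios of PSPH were below 0, between -0.28 and -0.11, and none was past 1.5-fold.

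MTHFD2 (ENSG00000065911, chromosome 2, 74413299 to 74444692), the mitochondrial dehydrogenase and cyclohydrolase, had the highest ratio of the 9 members in each of the 4 comparisons. It stood at 158 CPM in DMSO and 313 CPM in BI8622 in control cells, a fold of 1.97, and at 164 and 237 CPM in shHUWE1 cells, a fold of 1.44. In -Dox cells it stood at 203 and 516 CPM, a fold of 2.55, and in +Dox cells at 220 and 526 CPM, a fold of 2.39. Its log2 ratios were 0.98, 0.53, 1.35 and 1.26, and they stand as a description, since this response was among those that chose the genes.

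The other mitochondrial enzymes moved less. SHMT2 (ENSG00000182199, chromosome 12, 57623356 to 57628718), which splits serine in mitochondria, stood at 176 and 214 CPM in control cells and at 159 and 158 CPM in shHUWE1 cells. In the MIZ1 experiment SHMT2 stood at 181 and 286 CPM in -Dox cells and at 148 and 224 CPM in +Dox cells. Its log2 ratios were 0.28, -0.01, 0.66 and 0.60, the last being the value just past the 1.5-fold line. MTHFD1L (ENSG00000120254, chromosome 6, 151186815 to 151423023), the formate-releasing synthetase, stood at 155 and 169 CPM in control cells, 155 and 153 CPM in shHUWE1 cells, 122 and 166 CPM in -Dox cells and 127 and 167 CPM in +Dox cells. The log2 ratios of MTHFD1L, 0.13, -0.02, 0.44 and 0.39, stayed within 1.5-fold.

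ALDH1L2 (ENSG00000136010, chromosome 12, 105413562 to 105501421) was the member that fell under the 5 CPM filter, so 8 of 9 members passed it in each experiment. Its 4 groups stood between 1.88 and 2.01 CPM in the HUWE1 experiment. In the MIZ1 experiment it stood at 3.24 and 3.72 CPM in -Dox cells and at 5.18 and 5.42 CPM in +Dox cells, so the +Dox groups were above both -Dox groups. The log2 ratios with BI8622 were between 0.00 and 0.20.

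Both cytosolic folate enzymes had lower levels with BI8622. MTHFD1 (ENSG00000100714, chromosome 14, 64854749 to 64930175), which combines synthetase, cyclohydrolase and dehydrogenase activities, stood at 159 and 127 CPM in control cells and at 169 and 130 CPM in shHUWE1 cells. In -Dox cells MTHFD1 stood at 155 and 87.0 CPM, lower by 1.78-fold, and in +Dox cells at 162 and 104 CPM, lower by 1.56-fold. SHMT1 (ENSG00000176974, chromosome 17, 18231174 to 18266877) stood at 91.8 and 74.7 CPM in control cells, 87.2 and 70.3 CPM in shHUWE1 cells, 93.2 and 68.5 CPM in -Dox cells and 93.8 and 64.5 CPM in +Dox cells. The log2 ratios of SHMT1 were between -0.54 and -0.30, and those of MTHFD1 between -0.83 and -0.33. MTHFD1 and SHMT1 lay within the central 95% of genes between 50 and 500 CPM in all 4 comparisons, as did PSPH, SHMT2 and MTHFD1L. Of the members with higher levels, PHGDH lay above this range in -Dox cells only and PSAT1 in control cells only. MTHFD2 lay above it in control, -Dox and +Dox cells and within it in shHUWE1 cells.

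**Figure D2:**
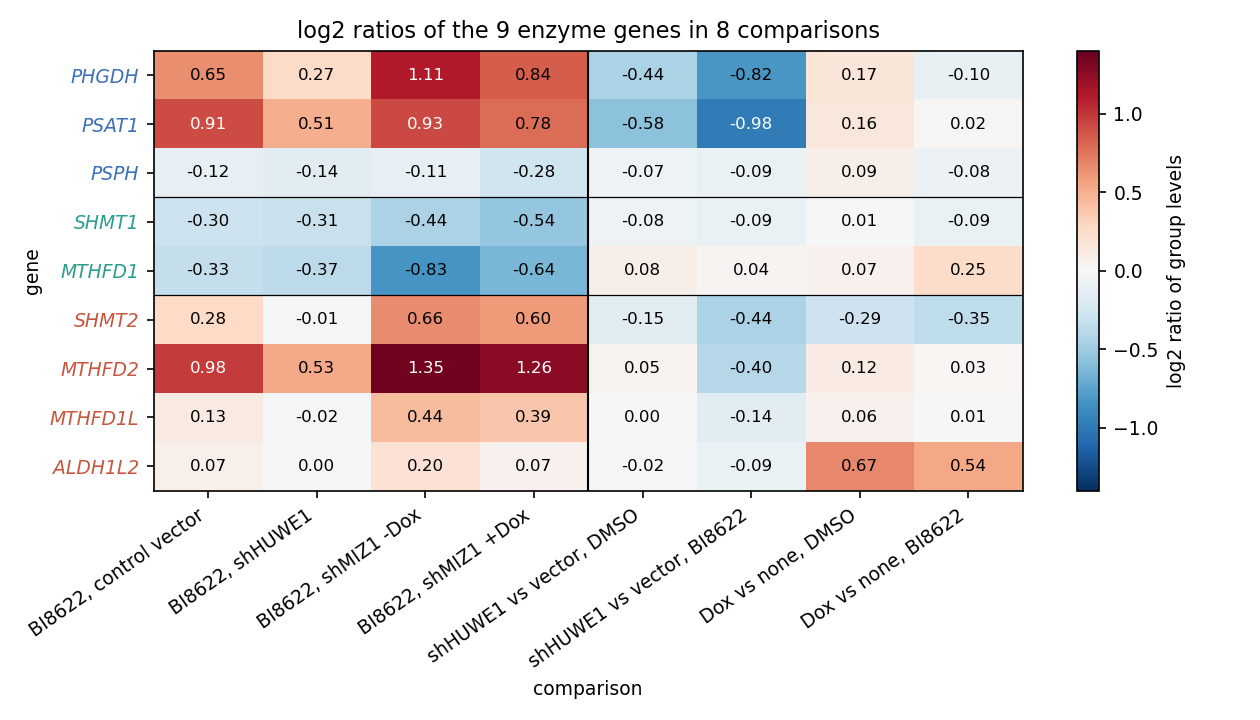
Colour and number give the log2 ratio of group levels for 9 genes (rows) in 8 comparisons (columns), with BI8622 against DMSO left of the line and the shRNA or doxycycline comparisons right of it. Gene names are blue for serine synthesis, green for cytosolic folate and red for mitochondrial folate enzymes. MTHFD2 holds the highest value, 1.35, and PSAT1 the lowest, -0.98, in shHUWE1 cells against control cells in BI8622.

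The compartments were also compared by pairs of matching folate enzymes. The ratio of MTHFD2 to MTHFD1 was higher with BI8622 by 2.48-fold in control cells, 1.87-fold among shHUWE1 cells, 4.53-fold in -Dox cells and 3.73-fold in +Dox cells. For SHMT2 to SHMT1 the changes were 1.49-fold, 1.23-fold, 2.15-fold and 2.20-fold, and for MTHFD1L to MTHFD1 they were 1.37-fold, 1.27-fold, 2.41-fold and 2.04-fold. Both pairs with MTHFD1 share that gene, and the responses of MTHFD2 and SHMT2 were known when the genes were chosen, so these changes are a description. PSAT1 to PHGDH, both cytosolic, changed by 1.20-fold, 1.18-fold, 0.879-fold and 0.959-fold and so had no common direction.

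Over all members, the median log2 ratio of the 4 mitochondrial genes exceeded that of the 5 cytosolic genes by 0.32 in control cells, 0.14 in shHUWE1 cells, 0.66 in -Dox cells and 0.77 in +Dox cells. This contrast mixes unlike members, because PHGDH and PSAT1 are cytosolic and had ratios above those of SHMT2 and MTHFD1L in all 4 comparisons. Against SHMT1 and MTHFD1 alone, the mitochondrial median was higher by 0.52, 0.33, 1.19 and 1.08. These mitochondrial medians include ALDH1L2, which fell under the 5 CPM filter. Without ALDH1L2 the median was higher than that of SHMT1 and MTHFD1 by 0.60, 0.33, 1.30 and 1.19. The groups were scaled so that the median over all genes is near 0, which gives no separate reference for these values.

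**Figure D3:**
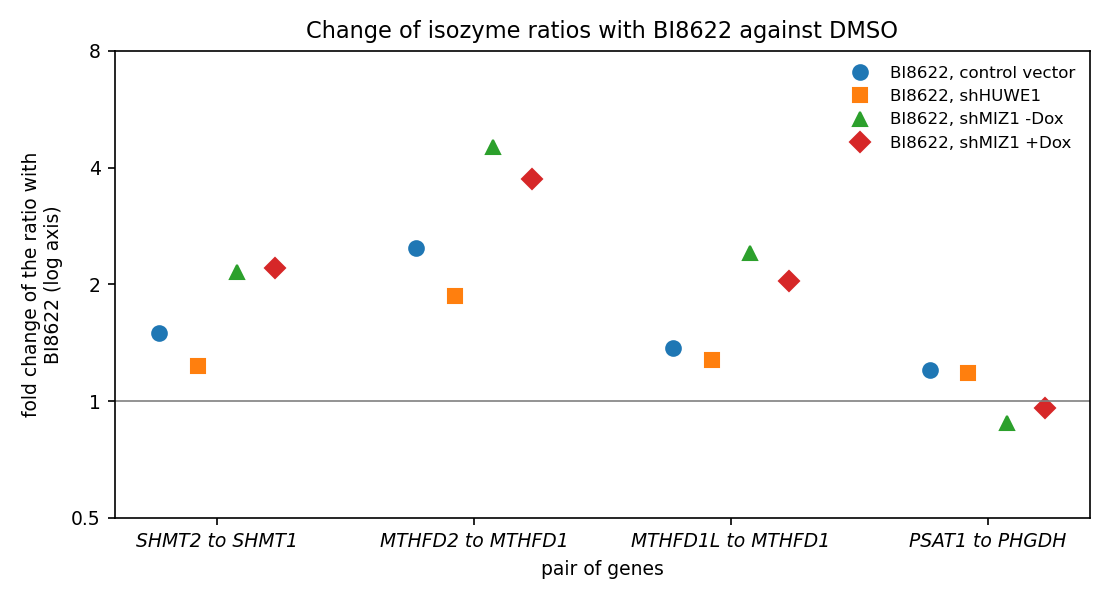
Fold change, with BI8622 against DMSO, of the ratio between 2 genes (log axis), with a symbol for each of the 4 cell backgrounds and a grey line at no change. The values of MTHFD2 to MTHFD1 run from 1.87 to 4.53, those of SHMT2 to SHMT1 from 1.23 to 2.20 and those of MTHFD1L to MTHFD1, which share MTHFD1 with the first, from 1.27 to 2.41, while those of PSAT1 to PHGDH lie on both sides of 1.

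The response to BI8622 was next set against HUWE1 depletion. The log2 ratio with BI8622 was lower in shHUWE1 than in control cells by 0.38 for PHGDH, 0.41 for PSAT1, 0.29 for SHMT2 and 0.45 for MTHFD2. For genes of 50 to 500 CPM the central 95% of this difference ran from -0.34 to 0.24, so that PHGDH, PSAT1 and MTHFD2 lay outside it and SHMT2 inside. For PSPH, SHMT1 and MTHFD1, the difference was between -0.04 and -0.01, for MTHFD1L it was -0.15 and for ALDH1L2 -0.07. The difference was not tested, as no spread between libraries is given, and it is a description, since BI8622 responses chose the genes.

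With HUWE1 depletion alone, in DMSO, 0 members were past 1.5-fold, where 1.87% of 16997 genes were past it in either direction. PSAT1 was nearest, at -0.58 on the log2 scale, just inside the line, and PHGDH stood at -0.44. Both lay below the central 95% of genes of like level, which began at -0.33, whereas SHMT2 at -0.15, PSPH at -0.07, SHMT1 at -0.08, MTHFD1 at 0.08, MTHFD2 at 0.05, MTHFD1L at 0.00 and ALDH1L2 at -0.02 did not. In BI8622, PHGDH at -0.82 and PSAT1 at -0.98 were past 1.5-fold lower in shHUWE1 cells, where 1.65% of genes were past it in either direction. SHMT2 at -0.44 and MTHFD2 at -0.40 were within the line but below the central 95%, which began at -0.36. MTHFD1 stood at 0.04, and PSPH, SHMT1, MTHFD1L and ALDH1L2 between -0.14 and -0.09. These comparisons share their groups with those of BI8622 above. The 11 colon markers moved between the same cells, with a median log2 ratio of 0.51 for shHUWE1 against control vector in DMSO and 4 of 11 past 1.5-fold higher. Their part in the result was not tested.

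The doxycycline comparisons ask how the members stood with the shRNA against MIZ1 induced. SHMT2 had lower and ALDH1L2 higher levels with doxycycline in both DMSO and BI8622. In DMSO, 0 of the 8 members that passed the filter were past 1.5-fold, where 0.616% of 17219 genes were, and in BI8622 also 0, where 0.732% were, so at this background 0 of 8 says little about the members. SHMT2 had the largest difference of these 8, at -0.29 in DMSO and -0.35 in BI8622, below the central 95% of genes of like level, which began at -0.21 and -0.25. MTHFD1 stood at 0.07 and 0.25, and the latter lay just above a bound of 0.22. The other 6 stood between -0.10 and 0.17. For ALDH1L2 the log2 ratios were 0.67 and 0.54, at the low levels given above. The response of MTHFD2 to BI8622 differed by -0.09 between +Dox and -Dox cells, that of PSAT1 by -0.15 and that of SHMT2 by -0.06, all inside the central 95% of genes, -0.22 to 0.23. For PHGDH the difference was -0.27, outside it, and for PSPH, SHMT1, MTHFD1, MTHFD1L and ALDH1L2 it lay between -0.17 and 0.19.

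Other genes of the pathway were described in the same way, with lists written when earlier results of these data were known. Of 18 further folate genes, 16 passed the filter in each experiment, with 1 past 1.5-fold higher and 3 lower with BI8622 in control cells, 1 and 2 in shHUWE1 cells, and 1 and 3 in each arm of the MIZ1 experiment. Over all genes 7.38%, 5.13%, 12.2% and 10.7% were past 1.5-fold higher in these backgrounds, and 4.72%, 4.51%, 12.0% and 10.9% lower. With so few genes, the counts of this list are a description. TYMS, the thymidylate synthase, had log2 ratios of -0.86, -0.83, -1.39 and -1.42. SLC19A1, the reduced folate carrier, had -0.80, -0.76, -1.05 and -1.11, and SLC25A32, the mitochondrial folate carrier, had -0.62, -0.38, -0.52 and -0.65. ALDH1L1, the cytosolic counterpart of ALDH1L2, was higher with 1.23, 1.12, 2.07 and 1.88. The cytosolic folate genes thus did not share a direction, ALDH1L1 standing opposite to SHMT1 and MTHFD1. The median of the list was between -0.32 and -0.06.

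Of 20 genes of glycine and serine use and of the methionine cycle, 13 passed the filter, and 3 were past 1.5-fold higher and 0 lower with BI8622 in control cells, 1 and 0 in shHUWE1 cells, 4 and 3 in -Dox cells and 4 and 1 in +Dox cells. The shares of all genes were 7.38%, 5.13%, 12.2% and 10.7% higher and 4.72%, 4.51%, 12.0% and 10.9% lower. DMGDH, a mitochondrial folate-dependent enzyme of choline breakdown, had log2 ratios of 1.68, 0.72, 2.60 and 2.41. CTH, which makes cysteine from cystathionine, had 1.24, 0.53, 1.48 and 1.29. SLC1A4, a serine and alanine transporter, had 0.69, 0.35, 1.11 and 0.95. In each of these 3 genes the ratio in shHUWE1 cells was the lowest of the 4. No gene past 1.5-fold lower is named, since such genes were past it in the MIZ1 experiment only. The medians of the list were -0.06, 0.05, -0.26 and -0.15, and its lowest ratios -0.33, -0.29, -1.08 and -1.14.

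Many targets of ATF4 and of amino acid stress had higher levels with BI8622 as well. Of 24 such genes, 23 passed, and 14 were past 1.5-fold higher and 0 lower in control cells, 9 and 0 in shHUWE1 cells, 19 and 1 in -Dox cells and 18 and 1 in +Dox cells. Their median log2 ratios were 0.72, 0.53, 1.16 and 1.16. Of all genes, 7.38%, 5.13%, 12.2% and 10.7% were past 1.5-fold higher and 4.72%, 4.51%, 12.0% and 10.9% lower. TRIB3, a stress-induced pseudokinase, had 1.79, 1.28, 3.11 and 2.98, and DDIT3, the transcription factor CHOP, had 1.23, 1.13, 3.10 and 3.12. DDIT4, an inhibitor of mTORC1 signalling, had 2.15, 1.76, 2.19 and 1.87, and SLC7A11, the cystine transporter, had 1.64, 1.24, 2.00 and 2.08. ATF4 itself, added for this list after its values were seen, stood at 249 and 371 CPM in control cells, 217 and 314 CPM in shHUWE1 cells, 233 and 447 CPM in -Dox cells and 261 and 446 CPM in +Dox cells. The counts and medians of the list include ATF4, so they are a description. In shHUWE1 cells the median of 0.53 is the ratio of ATF4 itself. MTHFD2, SHMT2, MTHFD1L, PHGDH, PSAT1 and PSPH lay within the range of the list in all 4 comparisons. That range is wide, from -0.35 to 2.15, -0.31 to 1.76, -0.77 to 3.11 and -0.74 to 3.12. It also holds genes with lower levels, so lying within it says little about likeness to the list. SHMT2, MTHFD1L, PHGDH and PSPH were below the median of the list in all 4, and PSAT1 in all but control cells.

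The gene closest to the mean pattern of the mitochondrial members was IARS, the cytosolic isoleucyl-tRNA synthetase, at a Euclidean distance of 0.0914 on the log2 scale over 8 comparisons, of which the last 4 share groups with the first. Among 16517 genes of at least 5 CPM outside the members, TBL1X at 0.160, SLC35F6 at 0.195, SLX4 at 0.204 and DNAL4 at 0.206 came next, while the median gene lay at 1.16. The members themselves lay further from their mean, MTHFD1L at 0.434, SHMT2 at 0.650, ALDH1L2 at 1.06 and MTHFD2 at 1.23, so the mean describes none of them closely. The mean includes ALDH1L2, although this gene fell under the 5 CPM filter. Its doxycycline log2 ratios of 0.67 and 0.54 were the highest of these members and raise the mean in those comparisons.

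Pseudogene copies of 5 members, found by their names, are listed as genes of their own, and reads may have been split between a member and its copies. How alike their sequences are was not measured. MTHFD1P1 stood at 28.1% of the MTHFD1 level in the HUWE1 and 28.7% in the MIZ1 experiment, the copies of MTHFD2 together at 19.9% and 16.8%, and those of PSAT1 at 19.0% and 19.4%. The copies of SHMT1 and PSPH stood at 8.55% and 5.52% in the HUWE1 experiment. With BI8622 every listed copy of MTHFD2 and PSAT1 had a higher level in all 4 comparisons. MTHFD1P1, SHMT1P1 and PSPHP1 had a lower level, so all copies had the direction of their members. Some hardly moved, SHMT1P1 with -0.03 in control cells and PSPHP1 with -0.004 and -0.03 in control and shHUWE1 cells. Several copies, PSPHP1 among them, lay under 5 CPM. Adding the copies to the members moved no log2 ratio by more than 0.041, and gave MTHFD2 ratios of 0.98, 0.57, 1.35 and 1.27 and MTHFD1 ratios of -0.36, -0.39, -0.87 and -0.66. The levels of these 5 genes are uncertain by the reads that members and copies may share.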

How the data were processed

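RNA of 16 libraries was used, 2 for each of 8 groups, and 6 ChIP libraries were not analysed here. Per the labels and the study's methods, the authors isolated poly-A RNA, prepared libraries with either of a pair of kits, sequenced them on a Genome Analyzer IIx, mapped them with Bowtie 0.12.8 to the hg19 genome and used edgeR to compare groups. The sources used here do not give how reads were counted per gene, nor the edgeR version. The deposited mean log2 CPM values over pairs of groups were used. The fold changes, p-values and adjusted p-values that the tables also hold are the authors' own comparisons and were not used.

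Mean values were turned to CPM, and group levels solved as arithmetic means, from 4 pairs in the HUWE1 and 5 in the MIZ1 experiment, with groups scaled to a median log2 ratio of 0 over genes of at least 5 CPM. The spare pair of the MIZ1 experiment was met within a median of 0.0012 on the log2 scale. The HUWE1 experiment has no spare pair, so its solution has no such check. The solution was also run on data simulated as arithmetic means of pairs. Such a run checks the calculation and cannot show that the deposited values are arithmetic means. The experiments were normalised separately, so levels are compared only within each, and are set side by side across them. The libraries behind a mean may be technical repeats, since nothing says they are separate cultures.

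The members and lists were chosen with earlier results of these data known. A gene of the other folate list is not reported here and was left out of its counts. All 9 members were named. Of other lists, genes past 1.5-fold with BI8622 in both experiments were named, at most 4 a list by size, and also the 5 genes nearest the mitochondrial mean. Gene positions are those of GRCh37. Alternatives were the scaling as deposited, a geometric mean, subtraction of the lowest value, filters of 1 CPM or none, a 2-fold line and, added after seeing the data, summed pseudogene copies. Python 3.11.15, numpy 2.4.6, scipy 1.17.1, pandas 2.3.3 and matplotlib 3.10.9 were used.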

Additional observations from a re-analysis of the deposited data

How the results depend on the processing

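No paired analysis was possible because the values are means over the libraries of a pair of groups, and for the same reason leaving out a replicate was not run. The scaling as deposited, the subtracted lowest value and the summed pseudogene copies moved the log2 ratios of the 8 members above 5 CPM by at most 0.026, 0.025 and 0.041, and the geometric mean by at most 0.174, for MTHFD2 without doxycycline. For ALDH1L2 the subtracted lowest value moved a ratio by up to 0.231. The difference of the mitochondrial and cytosolic medians moved by at most 0.075 under these settings.

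At a 2-fold line the members past it numbered 0 in control vector cells, 2 without and 1 with doxycycline for BI8622, and 0 for shHUWE1 against control vector in BI8622. At that line 2.42%, 1.72%, 7.90% and 6.35% of all genes were past it for BI8622 in control vector, shHUWE1, -Dox and +Dox cells, 0.265% and 0.200% for shHUWE1 in DMSO and BI8622, and 0.0348% and 0.0523% for doxycycline. With the geometric mean 1 member, MTHFD2, was past 1.5-fold in shHUWE1 cells, and 0.958% of genes for doxycycline in DMSO. A filter of 1 CPM and no filter gave 5.71% and 6.14% of genes for shHUWE1 in DMSO, 4.94% and 5.33% in BI8622, 3.56% and 4.02% for doxycycline in DMSO and 3.75% and 4.19% in BI8622. Both added 1 member, ALDH1L2, for doxycycline in DMSO. The filters change which genes are tested. The cause of the other shifts was not tested.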
